A study of Mus musculus with 6 samples.

Results

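The fibroblast growth factor (FGF) family was examined in sorted mouse hair follicle cells 3 days after the skin had been treated with a carcinogen or with its solvent. Members were taken by gene symbol and comprised FGF ligands and their intracellular homologues, receptors, FGF-binding proteins, Sprouty and Spred inhibitors, and the FRS adaptors. The array carried 61 probes for 41 such genes, out of 21368 genes with a symbol. Of the 41, the gene Fgfr1op2 and the noncoding RNAs Fgf2os and Frs3os share only a name or a locus with the family. RNA was measured on 1-colour Agilent arrays in 3 male mice treated with vehicle (acetone) and 3 male mice treated with DMBA, a polycyclic hydrocarbon that damages DNA once metabolised. All 6 mice had been depilated before the treatment, which was applied to the skin, and all carried the reporter K15-EGFP, named for keratin 15 of the bulge. Epidermal cells with high reporter and high ITGA6 (an integrin of basal cells) but no ScaI were sorted, a population described by the submitters as stem cells of the follicle together with its germ (HFSCs/HG). Mouse age, strain and dose are not given in the sources used here. Because the gate pools bulge and germ, a level is a mean over both.

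Canonical FGF ligands are secreted proteins that bind receptor tyrosine kinases together with heparan sulfate. The adaptor FRS2 links the receptors to the RAS and MAP kinase cascade, and Sprouty and Spred proteins, several of them induced by that cascade, damp it. In skin, Fgf7 and Fgf10 are made by the dermal papilla and act on Fgfr2 in the overlying epithelium, Fgf18 is a ligand of the bulge that holds the follicle at rest, and Fgf5 ends the growth phase.

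Promoter sequences are shown for a ligand that varied from array to array (Fgf18), a ligand flagged as detected on no array (Fgf7) and an inhibitor measured on every array (Spry2). Each runs 5′ to 3′ from 250 bases before to 50 bases after the RefSeq start, on build GRCm38.p6, with CG dinucleotides in capitals. Fgf18 lies on the minus strand at chr11:33147351-33147650, Fgf7 on the plus strand at chr2:126034408-126034707 and Spry2 on the minus strand at chr14:105896770-105897069.
Fgf18: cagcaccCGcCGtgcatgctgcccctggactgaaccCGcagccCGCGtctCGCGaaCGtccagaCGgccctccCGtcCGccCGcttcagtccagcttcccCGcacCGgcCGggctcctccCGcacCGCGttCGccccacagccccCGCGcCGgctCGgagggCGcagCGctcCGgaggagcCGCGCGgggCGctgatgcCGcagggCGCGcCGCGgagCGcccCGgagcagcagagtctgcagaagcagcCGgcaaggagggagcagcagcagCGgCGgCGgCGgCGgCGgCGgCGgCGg
Fgf7: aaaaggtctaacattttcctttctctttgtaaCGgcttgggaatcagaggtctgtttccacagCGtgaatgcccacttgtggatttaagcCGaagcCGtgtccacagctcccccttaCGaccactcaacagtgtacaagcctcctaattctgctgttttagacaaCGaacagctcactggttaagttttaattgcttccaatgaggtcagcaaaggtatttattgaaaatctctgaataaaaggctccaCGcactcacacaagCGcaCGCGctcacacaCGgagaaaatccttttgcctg
Spry2: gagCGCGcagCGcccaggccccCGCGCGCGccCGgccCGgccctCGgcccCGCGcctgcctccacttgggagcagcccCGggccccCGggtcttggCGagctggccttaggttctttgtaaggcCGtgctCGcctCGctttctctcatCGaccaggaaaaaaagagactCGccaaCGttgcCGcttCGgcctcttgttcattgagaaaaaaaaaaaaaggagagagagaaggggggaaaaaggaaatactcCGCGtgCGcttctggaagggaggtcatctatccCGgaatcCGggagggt
The Fgf18 window held 47 CG dinucleotides, that of Spry2 28 and that of Fgf7 11, beside a median of 7 over the 32851 promoters in the RefSeq table. Their G and C content was 78.7%, 62.7% and 45.7%, respectively, beside a median of 52.7%. Promoters of 32 of the 41 members were read. The ETS core CCGGAAG, searched on both strands, stood in those of 2, Fgfrl1 and Frs2, and in 8.86% of all promoters in the table. The windows are given as a description, since no measurement of this study was made on promoters.

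Values are log2 intensities relative to the 75th percentile of the same array, so 0 is that percentile, and they are not compared between genes. Of 10 markers of follicle stem cells and germ, all were well above background, a flag set by the scanner software for each spot, on all 6 arrays. They include the genes of the positive gates, Krt15 and Itga6, whose groups overlapped. Of the 10, 4 had a higher mean after DMBA and 6 a lower one, with a median log2 fold change of -0.046. In 3 of them the groups did not overlap, where 10.0% of all genes tested did not. These were Lgr5, Sox9 and Tbx1, all lower after DMBA, with log2 fold changes of -0.64 (SE 0.22), -0.50 (SE 0.24) and -0.42 (SE 0.22). Their adjusted p values in limma were 0.894, 0.967 and 0.985. Ly6a, the gene of the ScaI antigen that the gate left out, was also well above background on all 6 arrays. It lay at -0.20, -1.67 and -1.78 in vehicle and 0.29, 0.27 and 0.13 after DMBA, higher on every DMBA array, for 1.45 (SE 0.45, 95% interval 0.35 to 2.54) and an adjusted p of 0.853 in limma. The part of these differences in the values below was not tested. The share of probes with that flag lay between 77.0% and 83.6% on the vehicle arrays and between 69.3% and 80.9% on the DMBA arrays. Vehicle 1 lay on a slide of its own. In these bulk samples, fewer cells of a type and less RNA per cell cannot be told apart.

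DMBA against vehicle at 3 days was the one comparison of the design. No member of the family passed the test: 0 of the 30 members that could be tested had a Benjamini-Hochberg adjusted p under 0.05 in limma, where 0% of all 17834 genes tested passed. At unadjusted p under 0.05 the count was also 0 of 30, where 5.23% of all genes passed. In none of the 30 did the 3 DMBA arrays lie all above or all below the 3 vehicle arrays, a separation seen in 10.0% of all genes. The log2 fold changes ran from -0.44 (Fgf12) to 1.53 (Spred3), and the smallest unadjusted p was 0.190 (Fgfrl1). The mean was higher after DMBA in 9 members and lower in 21, where 48.7% of all genes were higher. The median log2 fold change was -0.055 over the 30 members and -0.011 over all genes. Neither the split nor the sign of the median was stable. With slide as a block, 17 members were higher and the median was 0.048. With each array's share of detected probes as a covariate, 17 were higher and the median was 0.049.

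The precision differed widely between members. In 15 of the 30 the 95% confidence interval of the fold change lay within 2-fold in either direction, as it did in 39.0% of all genes tested. Fgfr2, Fgfr3, Fgfr4, Spry1, Spry2 and Spred2 were among these 15. The intervals of the others reached past 2-fold in at least 1 direction. The standard error of the log2 fold change ran from 0.22 (Fgf11) to 1.40 (Spred3) over the tested members, with a median of 0.32. A missed threshold does not show that a member was equal in both groups.

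**Figure D1:**
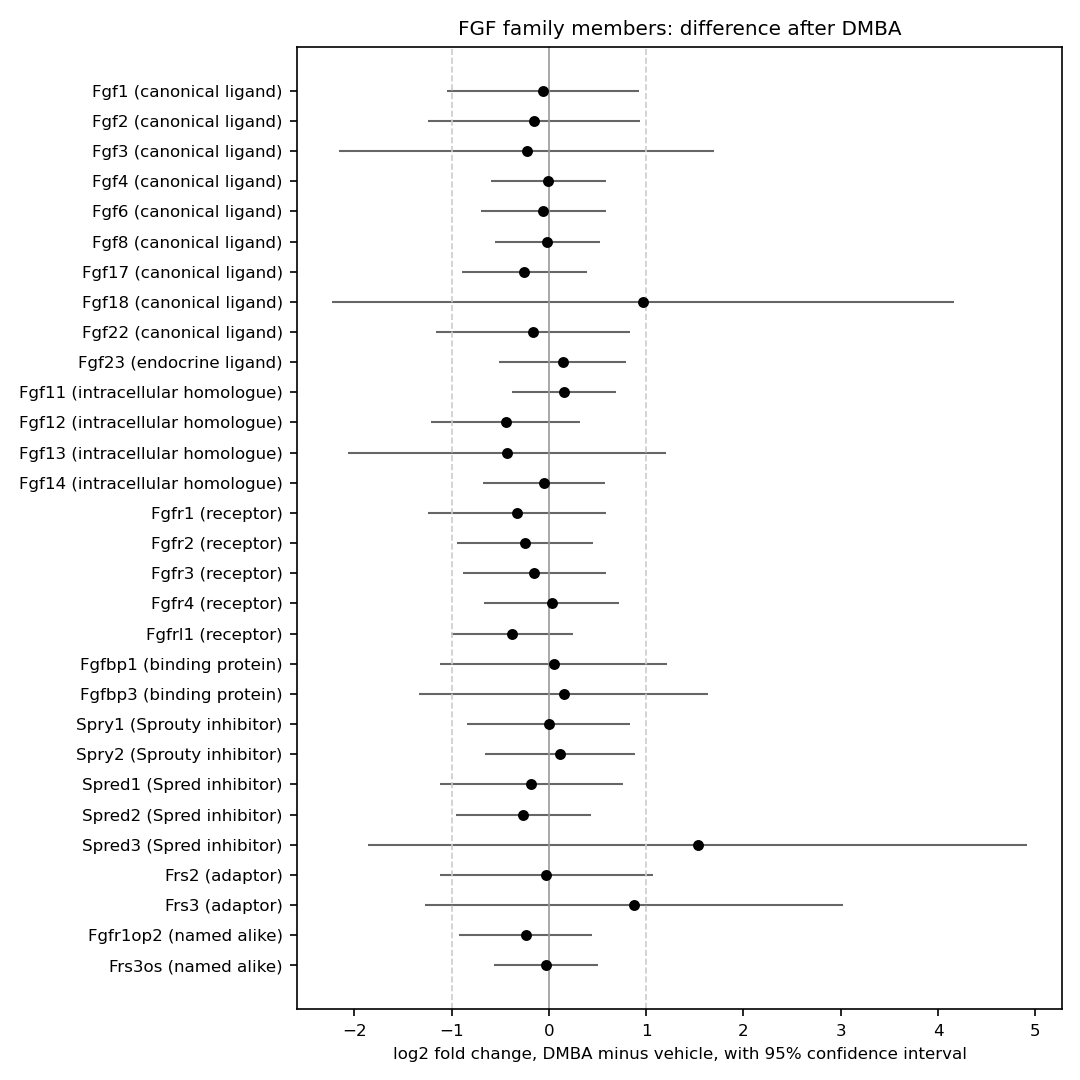
Log2 fold change of DMBA against vehicle (horizontal axis) for the 30 tested members of the FGF family, with its 95% confidence interval from limma over 3 arrays per group. Every interval crosses 0, and dashed lines mark 2-fold in either direction. The widest intervals are those of Spred3, Fgf18 and Frs3.

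Detection differed widely within the family. With the probe flagged on most arrays taken for each gene, 23 of the 41 were well above background on all 6 arrays, 10 on some and 8 on none. Among the 15 canonical ligands, 7 were so on all arrays: Fgf1, Fgf2, Fgf6, Fgf8, Fgf17, Fgf18 and Fgf22. The dermal papilla ligands Fgf7 and Fgf10, with Fgf9 and Fgf16, were well above background on no array. Fgf7 lay at -8.46, -8.63 and -5.89 in vehicle and -7.92, -7.19 and -7.67 after DMBA. Fgf10, read by 10 spots, lay at -8.30, -8.30 and -7.88 in vehicle and -7.57, -7.02 and -7.52 after DMBA. Its DMBA values all lay above its vehicle values, as the lowest value of any probe on each array also did, at -8.62, -8.73 and -8.23 in vehicle and -8.01, -7.32 and -7.79 after DMBA.

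The anagen ligand Fgf5 was well above background on 1 array, DMBA 3. Its values were -8.50, -8.69 and -7.11 in vehicle and -7.61, -7.24 and -3.63 after DMBA. The single high array set the group mean. The ratio of DMBA to background, 1.44, rested on that array and leaves out the spread between arrays. For such a ratio, each array of the dimmer group was set to its own lowest detected signal, or to the probe's signal where higher. The brighter group kept its signals, unflagged arrays included, and the averages of the groups were compared. The ratio is therefore not a lower bound. Fgf20, a ligand of the embryonic hair placode, was likewise flagged on 1 array, DMBA 1. It lay at -6.91, -6.65 and -8.00 in vehicle and -5.02, -7.07 and -7.55 after DMBA, and the same ratio, 1.097, rested on DMBA 1. Its other probe was flagged on none. Fgf9, a ligand of developing organs, lay at -7.32, -8.68 and -8.20 in vehicle and -6.63, -7.29 and -7.75 after DMBA with no array flagged.

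Fgf18, the ligand of the resting bulge, had the largest residual SD of the tested ligands. It lay at -1.64, -5.02 and -4.55 in vehicle and -0.40, -3.26 and -4.65 after DMBA. Vehicle 1 and DMBA 1 were the high arrays and the groups overlapped, with the highest and lowest array of each group more than 3 log2 units apart. The second probe gave -2.11, -5.49 and -3.26 in vehicle and -0.84, -3.72 and -5.32 after DMBA, high on the same 2 arrays. The log2 fold change was 0.97 (SE 1.32, 95% interval -2.23 to 4.16), with an adjusted p of 0.9996 in limma. It was -0.22 without DMBA 1 and 2.01 without vehicle 1. The residual SD of Fgf18 was 2.01, larger than in 98.6% of the genes tested. Among the markers of the inner bulge layer, the cells that surround the club hair, Krt75 was well above background on no array, while Timp3 lay at 1.95, 1.55 and 1.69 in vehicle and 1.97, 1.90 and 2.39 after DMBA and Krt6a at 0.84, 0.87 and 1.26 in vehicle and 2.38, 3.62 and 2.79 after DMBA. Their summed level ran from 4.76 to 5.66 in vehicle and from 9.15 to 16.003 after DMBA. Krt6a alone of these separated the groups, with an adjusted p of 0.519 in limma, while Timp3 overlapped. Krt6a was lowest of its group on both arrays where Fgf18 was high, and Timp3 was highest of its group on vehicle 1 but not on DMBA 1. The part of these cells in the spread of Fgf18 was not tested.

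Fgf2 and Fgf1 encode ligands that leave cells without a signal peptide. Fgf2 lay at -3.88, -3.57 and -2.54 in vehicle and -2.89, -3.94 and -3.60 after DMBA, with overlapping groups and vehicle 3 highest. Its 10 spots allowed the spread within an array to be set beside the spread between arrays. With 1 array per mouse, the latter cannot be split into mouse and handling. The SD over spots had a median of 0.14 over the 6 arrays, while the SD over arrays was 0.70 in vehicle and 0.54 after DMBA. The log2 fold change was -0.15 (SE 0.45, 95% interval -1.24 to 0.94). Fgf1 lay at 1.11, 0.78 and 0.38 in vehicle and -0.095, 1.11 and 1.08 after DMBA, again with overlapping groups. Its log2 fold change was -0.059 (SE 0.41), and -0.45 (SE 0.56) on its other kept probe.

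Fgf22, a ligand of skin epithelium, lay at -1.61, -2.88 and -2.88 in vehicle and -2.32, -2.91 and -2.63 after DMBA. Vehicle 1 was the high array, the other 5 lay close together, and the log2 fold change was -0.16 (SE 0.41, 95% interval -1.16 to 0.84). Among ligands best known from the embryo, the Fgf8 probe in use had a log2 fold change of -0.018 (SE 0.22). The other kept Fgf8 probes gave -0.41 (SE 0.42) and -0.23 (SE 0.32), and the mean of kept probes gave -0.22. These other probes were far dimmer, with vehicle means of -3.64 and -3.53 against 2.59 for the probe in use. What each probe read was not tested. Fgf17 had -0.25 (SE 0.27) and Fgf4 -0.0066 (SE 0.25), while Fgf3, flagged on 2 vehicle arrays and 1 DMBA array, had -0.23 (SE 0.79). Fgf6, known from muscle, had -0.056 (SE 0.27). None of the 5 separated the groups. With the detection covariate Fgf3 was 1.28, with an adjusted p of 0.675 in limma.

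Of the hormone-like ligands, which act through Klotho co-receptors, Fgf15, the gut hormone of bile acid control, was flagged on 1 array of the vehicle group and Fgf21, the liver hormone, on no array. Fgf23, the bone hormone of phosphate balance, was read by a pair of probes that disagreed on whether it was present. One was well above background on all 6 arrays and the other on none. What the detected probe read was not tested, so its log2 fold change of 0.14 (SE 0.27) is that of the probe. The co-receptor genes Kl and Klb were each well above background on 1 of the 6 arrays.

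Fgf11, Fgf12, Fgf13 and Fgf14 encode homologues that stay inside the cell and bind voltage-gated sodium channels. Fgf11 held the only kept member probe whose groups did not overlap, 1 of 43, where 10.1% of the 23425 kept probes with a symbol had that property. That probe, matched to a predicted RefSeq transcript, lay at 1.18, -0.13 and -0.81 in vehicle and -1.02, -2.74 and -2.02 after DMBA. All 3 DMBA values were lower than all 3 vehicle values, and vehicle 1 was the highest. In the fit over all kept probes its log2 fold change was -2.01 (SE 0.65, 95% interval -3.57 to -0.44), with an unadjusted p of 0.0198 and an adjusted p of 0.828 in limma. It was the 1 member probe at unadjusted p under 0.05, where 5.40% of kept probes passed. The probe in use for the gene gave another picture, with 0.71, 0.51 and 0.51 in vehicle and 0.95, 0.63 and 0.62 after DMBA and a log2 fold change of 0.16 (SE 0.22, 95% interval -0.38 to 0.69). Averaging the kept probes turned the gene's value to -0.92. For the other homologues the values were -0.44 (SE 0.32) for Fgf12, -0.43 (SE 0.68) for Fgf13 and -0.053 (SE 0.26) for Fgf14, each flagged on 3 to 5 arrays. The other kept Fgf14 probe gave 0.021 (SE 0.31). Fgf12 probes flagged on 1 DMBA array and on 2 vehicle arrays were not kept. Their log2 differences between the group means went opposite ways, at 1.75 and -1.32.

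**Figure D2:**
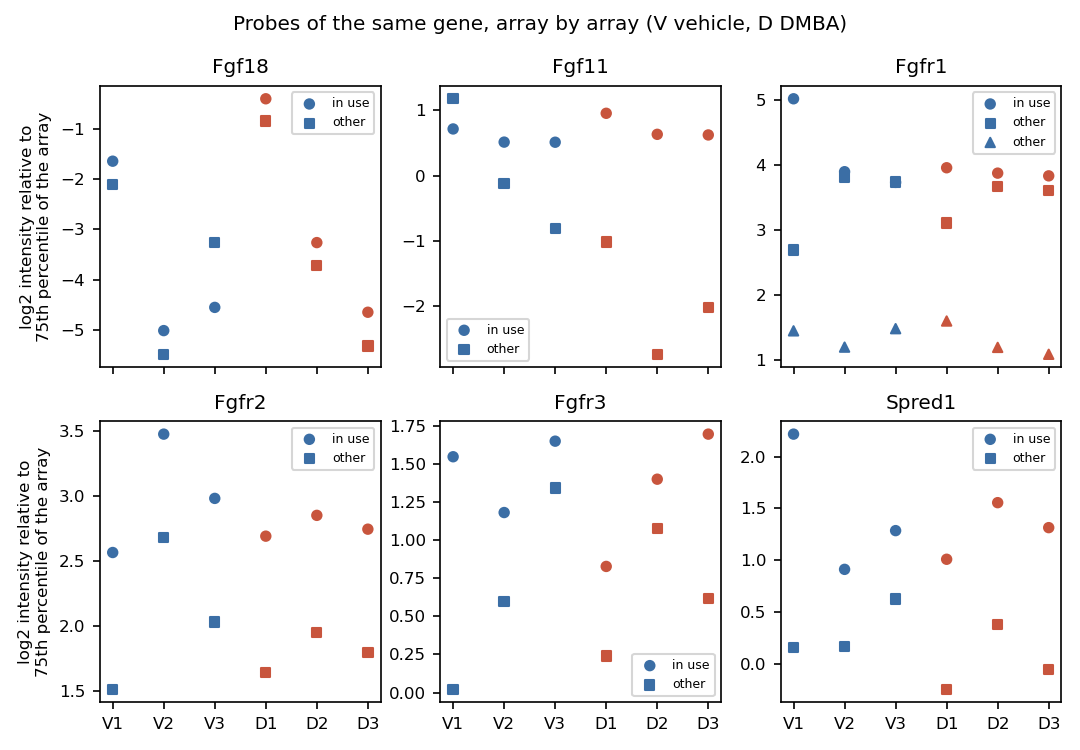
Log2 intensity relative to the array's 75th percentile (vertical axis) for every kept probe of 6 members, on vehicle arrays V1 to V3 (blue) and DMBA arrays D1 to D3 (red). Circles are the probe in use for the gene, squares and triangles its other kept probes. The 2 Fgf18 probes were both high on V1 and D1, while the 2 Fgf11 probes went different ways.

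All 5 receptor genes were well above background on all 6 arrays. Fgfr2, the epithelial receptor for Fgf7 and Fgf10, lay at 2.56, 3.47 and 2.98 in vehicle and 2.69, 2.85 and 2.74 after DMBA. Vehicle 2 was highest, the DMBA arrays lay within the vehicle range, and the log2 fold change was -0.25 (SE 0.29, 95% interval -0.94 to 0.45). Its other probe, with 10 spots, gave 1.51, 2.68 and 2.03 in vehicle and 1.64, 1.95 and 1.79 after DMBA, again with vehicle 2 highest. On that probe the SD over spots had a median of 0.041, against 0.59 between vehicle arrays and 0.15 between DMBA arrays.

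Fgfr1, a receptor of mesenchyme and basal cells, lay at 5.03, 3.90 and 3.74 in vehicle and 3.96, 3.88 and 3.84 after DMBA. Vehicle 1 was high and the other 5 arrays were nearly equal. A second probe read vehicle 1 as the lowest instead, with 2.70, 3.82 and 3.75 in vehicle and 3.11, 3.68 and 3.61 after DMBA. The third gave 1.45, 1.20 and 1.49 in vehicle and 1.61, 1.20 and 1.09 after DMBA, with neither group apart. The log2 fold change on the probe in use was -0.33 (SE 0.38, 95% interval -1.24 to 0.59), and 0.074 without vehicle 1.

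Fgfr3, known as a brake on bone growth and expressed in keratinocytes, lay at 1.55, 1.18 and 1.65 in vehicle and 0.83, 1.40 and 1.70 after DMBA. Its groups overlapped and the log2 fold change was -0.15 (SE 0.30, 95% interval -0.89 to 0.58). Fgfr4 lay at -1.39, -0.90 and -1.33 in vehicle and -0.76, -1.33 and -1.46 after DMBA, for a value of 0.030 (SE 0.29, 95% interval -0.67 to 0.73). Fgfrl1, a receptor without a kinase domain, had the smallest p of the family. It lay at 0.67, 0.51 and 1.09 in vehicle and 0.22, 0.30 and 0.61 after DMBA, so DMBA 3 lay within the vehicle range, and the log2 fold change was -0.38 (SE 0.26, 95% interval -1.002 to 0.24) with an adjusted p of 0.9996 in limma.

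The FGF-binding proteins carry stored ligand from the matrix to its receptors. Fgfbp1, a gene of keratinocytes, lay between 2.25 and 3.84, with a log2 fold change of 0.048 (SE 0.48). Fgfbp3 lay between -2.30 and 0.053, with 0.15 (SE 0.61). Vehicle 1 was the highest array for both, and all DMBA values lay between the vehicle extremes.

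**Figure D3:**
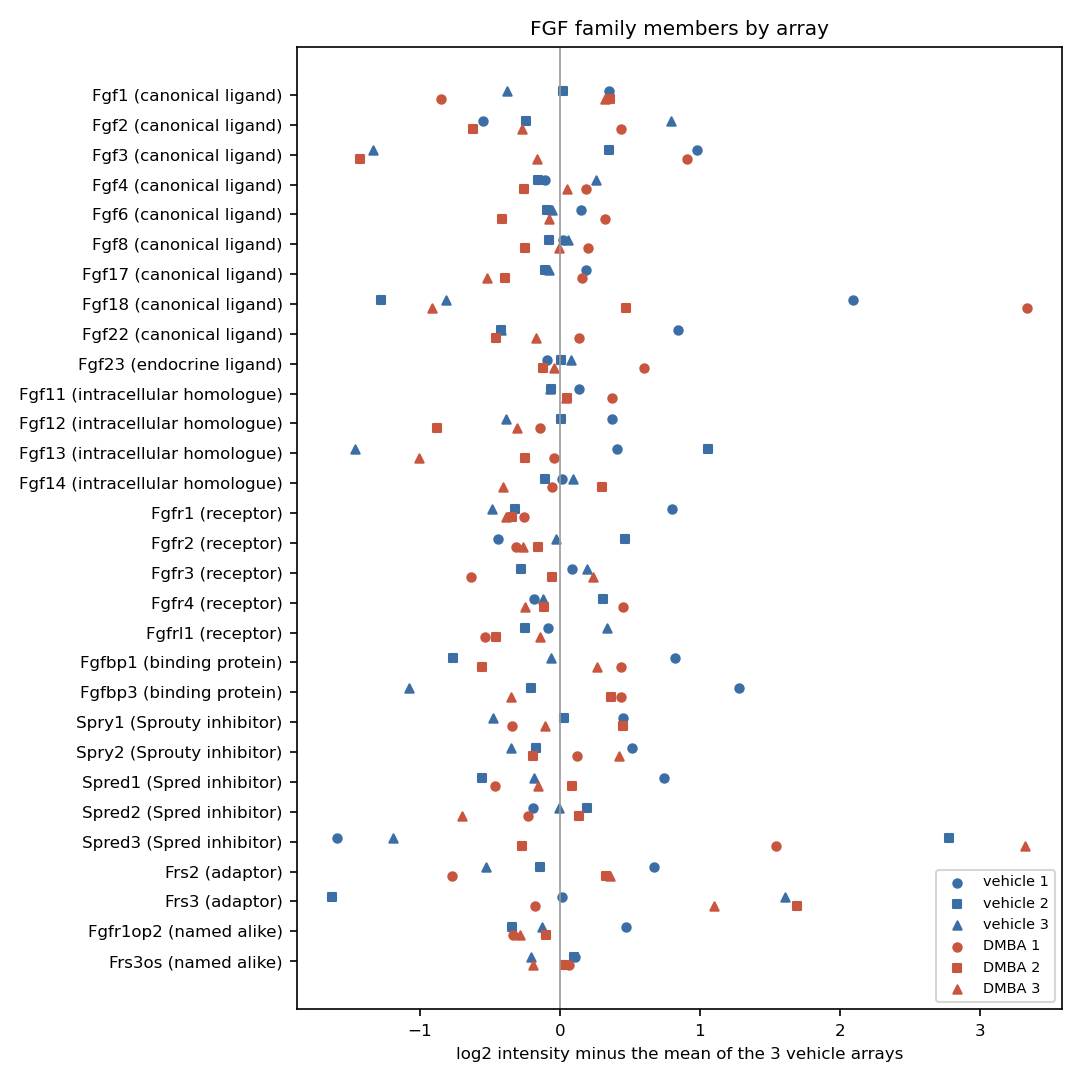
Log2 intensity of each tested member on each array minus the mean of its 3 vehicle arrays (horizontal axis), with vehicle arrays in blue and DMBA arrays in red. In all 30 members the colours overlap. Fgf18, Spred3 and Frs3 scatter over more than 3 log2 units within or across the groups, while Fgf11 and Fgf8 stay within 1.

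Sprouty and Spred genes were examined as the feedback arm. Spry1 lay at -1.45, -1.87 and -2.38 in vehicle and -2.24, -1.45 and -2.003 after DMBA, Spry2 at -0.62, -1.30 and -1.48 in vehicle and -1.01, -1.32 and -0.71 after DMBA. In both the ranges of the groups overlapped almost in full, with log2 fold changes of -0.00020 (SE 0.35, 95% interval -0.84 to 0.84) and 0.12 (SE 0.32, 95% interval -0.66 to 0.89). Spry4 was well above background on no array, at -6.94, -8.45 and -7.78 in vehicle and -7.02, -7.28 and -7.75 after DMBA, and neither was Spry3.

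Spred1, mutated in the human Legius syndrome, lay at 2.22, 0.91 and 1.29 in vehicle and 1.01, 1.56 and 1.32 after DMBA. Its other kept probe gave 0.16, 0.17 and 0.63 in vehicle and -0.25, 0.38 and -0.051 after DMBA, and the log2 fold change of the gene was -0.18 (SE 0.39, 95% interval -1.11 to 0.76). Spred2 lay at 0.12, 0.50 and 0.30 in vehicle and 0.079, 0.44 and -0.39 after DMBA, for -0.26 (SE 0.29, 95% interval -0.96 to 0.43). Neither separated the groups. Spred3 was well above background on vehicle 2, DMBA 1 and DMBA 3 alone and lay at -8.39, -4.02 and -7.99 in vehicle and -5.26, -7.08 and -3.48 after DMBA. It had the largest fold change of the family, 1.53 (SE 1.40, 95% interval -1.86 to 4.92), with an adjusted p of 0.9996 in limma. The value was 2.92 without vehicle 2 (adjusted p 0.944 in limma) and 0.64 without DMBA 3. With normexp background correction, chosen in its present form after the data were seen, it was 0.37.

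The adaptor Frs2 lay at 1.21, 0.39 and 0.0068 in vehicle and -0.23, 0.86 and 0.89 after DMBA, for a log2 fold change of -0.027 (SE 0.45, 95% interval -1.12 to 1.07). Its relative Frs3, flagged on 1 vehicle array and 2 DMBA arrays, lay at -6.32, -7.96 and -4.72 in vehicle and -6.51, -4.64 and -5.23 after DMBA, for 0.87 (SE 0.89, 95% interval -1.27 to 3.02). Frs3 was -0.52 with the share of probes above background as a covariate. Among the genes that share only a name or locus, Fgfr1op2 had -0.24 (SE 0.28) and Frs3os -0.030 (SE 0.22). The other kept Fgfr1op2 probe went the other way, at 0.53 (SE 0.29). Fgf2os was well above background on no array.

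The rest of the pathway was read from a list of 57 genes, of which 54 could be tested. None passed the adjusted threshold in limma. The list was chosen with earlier results known. At unadjusted p, 2 of 54 passed, both lower after DMBA, beside the 5.23% of all genes. The groups did not overlap in 9 of 54, 4 higher and 5 lower, beside the 10.0% of all genes. The median log2 fold change was 0.062, against -0.011 over all genes. With array medians in place of 75th percentiles the list's median was -0.0022 and that of all genes -0.075. By role, 5 of 11 co-receptors and modulators had a higher mean after DMBA (4 to 7 over the alternatives that tested the same number of genes).

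Nf1, a RAS inhibitor among the transducers, passed at unadjusted p. It lay at -0.25, 0.35 and -0.12 in vehicle and -2.11, -1.97 and -0.50 after DMBA, with all DMBA values lower and DMBA 3 nearest to vehicle. Its log2 fold change was -1.52 (SE 0.48, 95% interval -2.68 to -0.37), with an adjusted p of 0.853 in limma. In 14 of the 20 transducers the mean was lower after DMBA, where 51.3% of all genes were lower, and the count was 13 to 17 over those alternatives.

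Transcriptional targets of the cascade report on its activity in many tissues, and 10 of 13 had a higher mean after DMBA (8 to 11 over those alternatives), none past the test, where 48.7% of all genes were higher. Dusp6, the ERK phosphatase, lay at 3.20, 2.94 and 2.78 in vehicle and 3.32, 3.51 and 3.36 after DMBA. The DMBA arrays were all higher, and the log2 fold change was 0.43 (SE 0.22, 95% interval -0.11 to 0.97) with an adjusted p of 0.985 in limma. Etv4, an ETS factor, lay at 0.91, 1.68 and 1.65 in vehicle and 1.84, 1.99 and 1.91 after DMBA, again without overlap and with vehicle 1 lowest, for 0.50 (SE 0.28, 95% interval -0.18 to 1.19). It was 0.25 without vehicle 1. A second Etv4 probe gave -2.12, -0.23 and 0.019 in vehicle and 1.61, 0.049 and 0.093 after DMBA, also without overlap. The related Etv5 lay at 2.47, 2.08 and 2.49 in vehicle and 2.05, 2.39 and 2.51 after DMBA, with overlapping groups and -0.030 (SE 0.25).

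Il17rd encodes Sef, an antagonist at the FGF receptor. It lay at 1.47, 1.58 and 2.65 in vehicle and 0.27, -0.080 and 1.59 after DMBA. DMBA 1 and DMBA 2 were lower than all vehicle arrays while DMBA 3 was not, and the log2 fold change was -1.30 (SE 0.54, 95% interval -2.61 to 0.0068) with an adjusted p of 0.953 in limma. Of the heparan sulfate enzymes, the sulfatase Sulf2 had 0.67 (SE 0.28) and the chain-building enzyme Ext2 0.63 (SE 0.33). In these 2 of 10 the groups did not overlap, where 10.0% of all genes did not. The smallest adjusted p of the 10 enzymes was 0.962 in limma. A higher mean after DMBA was seen in 8 of the 10, where 48.7% of all genes were higher. That count was 6 to 9 over those alternatives and 6 of 10 with slide as a block.

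**Figure D4:**
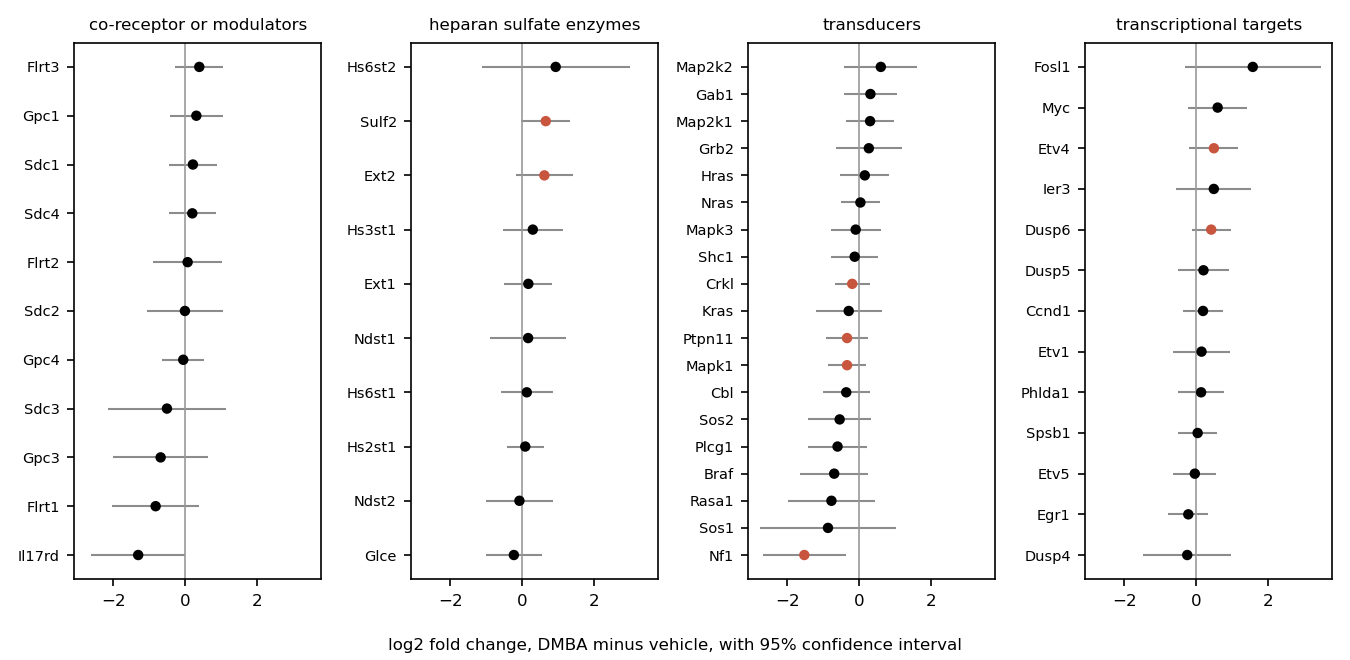
Log2 fold change of DMBA against vehicle with its 95% confidence interval (horizontal axis) for 53 of the 54 tested genes of the pathway list, in 4 panels by role. Red points mark the 8 genes drawn whose groups did not overlap: 4 transducers lower after DMBA, and Sulf2, Ext2, Etv4 and Dusp6 higher. Of all genes tested, 10.0% did not overlap. No gene of the list passed the adjusted threshold in limma.

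Markers of cells that make FGF ligands or answer them were read on the same arrays. Of 12 dermal papilla and fibroblast markers, 7 were well above background on all arrays, while Pdgfra and Pdgfrb, receptors that define fibroblasts, were so on none. Their summed level, relative to the 75th percentile, ran from 2.40 to 5.52 in vehicle and from 4.65 to 6.32 after DMBA, ranges that overlap. Of the 8 tested, 7 had a higher mean after DMBA, where 48.7% of all genes were higher. Col3a1 was lower, at -0.52 (SE 0.34). In 2 of the 8, Col1a1 and the matrix proteoglycan Dcn, the groups did not overlap, where 10.0% of all genes did not. Dcn lay at -1.64, -2.20 and -1.63 in vehicle and -0.35, -0.39 and -0.21 after DMBA, for 1.51 (SE 0.25). Col1a1 had 1.29 (SE 0.57). Their adjusted p values in limma were 0.445 for Dcn and 0.962 for Col1a1. The 9 leukocyte and epidermal T cell markers on the array summed to between 95.3 and 119 in vehicle and between 91.4 and 146 after DMBA, but 1 Itgam probe made up 90.4% to 94.5% of each sum. That probe had a vehicle mean of 6.59, while the other kept Itgam probes had -2.60 and -1.94. For Csf1r, another of the markers, the probe in use had 1.85 and the other kept probes -4.27 and -2.30. What each probe read was not tested. Without Itgam, a choice made after the values were seen, the other 8 summed to between 6.17 and 11.4 in vehicle and between 6.59 and 8.05 after DMBA. Among them the antigen presentation genes H2-Eb1 and H2-Aa did not overlap and went opposite ways. H2-Eb1 was higher after DMBA at 2.30 (SE 0.45) and H2-Aa lower at -0.49 (SE 0.23), with adjusted p of 0.537 and 0.967 in limma. Their part in the values of the family was not tested.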

How the data were processed

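Sorted cells of 3 vehicle and 3 DMBA mice were measured, 1 array each, taken from different mice per the series description. Cells were sorted into lysis buffer, extracted with a Qiagen RNeasy Micro kit and, as Cy3-labelled cDNA, hybridised (per the labels' protocols). The spot intensity was deposited by the authors as read by Agilent Feature Extraction 10.7.1.1, per the submitters' processing notes, with background already corrected and probes annotated on mm9, per the file headers. The deposited series table holds the same intensity on a linear scale divided by each array's 75th percentile (column medians from 0.154 to 0.172) and served as an alternative.

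Values were log2 intensities minus each array's log2 75th percentile, in R 4.3.3 with limma 3.58.1. The 3671 control spots were left out, outlier spots were set missing (45 probe values), and spots of 1 probe were averaged. Probes well above background on at least 3 of 6 arrays were kept (44916 of 55681). RefSeq accessions were matched to GRCm38.p6 symbols for 28331 probes, and a gene was represented by its brightest kept probe. No spot was saturated. The values of 1 gene of the pathway list are not reported here. DMBA was compared with vehicle by limma (lmFit, eBayes, two-sided) across 17834 genes with Benjamini-Hochberg adjustment, and the steps were tested on simulated data. With 3 arrays a group, array number sets the precision. Members, lists and named genes were chosen with earlier results of these data known. All 6 values were given for members whose groups do not overlap and whose higher group is well above background on all its arrays. They were also given for members at unadjusted p under 0.05, the receptors, and the inhibitors and adaptors other than Spry3. The ligands given in this way were Fgf1, Fgf2, Fgf5, Fgf7, Fgf9, Fgf10, Fgf18, Fgf20 and Fgf22. Alternatives changed the scaling, filter, probe rule, blocks and arrays. The planned normexp alternative used the median spot signal in place of the mean.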

Additional observations from a re-analysis of the deposited data

How the results depend on the processing

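No member of the family or of the pathway list passed the adjusted threshold under any of the 16 alternatives run. Without each array in turn, the number of genes past it over all genes ran from 0 to 1 and stayed at 0 for the members and for the list. The median over the pathway list, 0.062, was -0.0022 with array medians in place of 75th percentiles, -0.015 when slide was a block (vehicle 1, alone on its slide, then drops out), and -0.021 with the share of probes above background as a covariate. It ran from -0.015 to 0.12 without each array. The members' median ran from -0.17 to 0.048. With the replicate block 0 genes passed, so the block changed no call. The medians, -0.055 and 0.062, could not move under it, since each number holds 1 array of each group. Numbers were not taken to pair the mice: deviations of same-numbered arrays correlated across genes at 0.018, -0.020 and 0.058, and only number 3 correlated best with its own number in both groups. Without the filter on dim probes more genes were tested, and 1714 stood at unadjusted p under 0.05 in limma, against 933 of 17834 with it. The 2 counts therefore have unlike totals. Of the 41 members then tested, 3 were among the 1714. These were Fgf10, Spry3 and Fgf2os, flagged well above background on no array. Among the alternatives, the replicate block cannot turn a direction, and slide as a block is the same fit as that without vehicle 1. Over the members and alternatives, 406 of 473 values kept the direction and 67 turned it, with 0 called. The cause was not tested. With slide as a block the log2 fold changes that turned were Fgf1 0.12, Fgf22 0.26, Fgf3 0.26, Fgf6 0.018, Fgfr1 0.074, Fgfr4 -0.062, Frs2 0.31, Frs3os 0.023, Spred1 0.19, Spry1 0.22 and Etv5 0.034. With the mean of kept probes the log2 fold changes that turned were Fgf11 -0.92 and Fgfr1op2 0.14. With the covariate the log2 fold changes that turned were Fgf12 0.012, Fgf13 0.31, Fgf17 0.041, Fgf22 0.30, Fgf3 1.28, Fgf4 0.057, Fgf6 0.27, Fgf8 0.14, Frs3 -0.52 and Frs3os 0.089. With normexp the log2 fold changes that turned were Fgf14 0.20, Fgf3 0.17, Fgf4 0.12, Fgf6 0.044 and Frs3os 0.032. With array medians the log2 fold changes that turned were Fgfbp1 -0.016 and Fgfr4 -0.035. Without each array in turn the ranges of values that turned were Fgf1 -0.27 to 0.34, Fgf13 -1.16 to 0.097, Fgf14 -0.23 to 0.12, Fgf18 -0.22 to 2.01, Fgf2 -0.44 to 0.24, Fgf22 -0.37 to 0.26, Fgf23 -0.083 to 0.28 and Fgf3 -0.90 to 0.37. They were also Fgf4 -0.10 to 0.12, Fgf6 -0.25 to 0.12, Fgf8 -0.13 to 0.098, Fgfbp1 -0.33 to 0.46, Fgfbp3 -0.39 to 0.79, Fgfr1 -0.57 to 0.074, Fgfr3 -0.35 to 0.089 and Fgfr4 -0.18 to 0.18. The remaining ranges were Frs2 -0.29 to 0.34, Frs3os -0.13 to 0.051, Spred1 -0.46 to 0.19, Spry1 -0.24 to 0.22, Spry2 -0.058 to 0.38 and Etv5 -0.16 to 0.10.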
